A study of Mus musculus with 15 samples.

Results

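The aminoacyl-tRNA synthetases were followed in cultured mouse cortical neurons exposed to kainate, which opens AMPA and kainate-type glutamate receptors and in excess overexcites and kills cultured neurons. Members were the probes of an Illumina mouse bead array whose platform annotation gives a synthetase symbol and whose signal was detected (score above 0.95) on 3 or more of the 15 arrays. The symbol rule matched 35 probes of 26 genes, and 29 probes of 23 genes passed the detection rule, out of 14154 probes tested and 24607 targets with signals. Of the 23 genes, 11 encode cytosolic enzymes, 2 (Gars and Kars) serve both compartments from 1 gene, and 10 encode mitochondrial enzymes. The other 6 probes did not meet the detection rule, among them all probes of Hars, Hars2 and Yars2, which are not described further. Symbols are those of the array annotation (Aars is now called Aars1, and so on).

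The neurons came from the foetal neocortex of Swiss Albino mice at gestation day 15 to 16 and were used on day 5 of culture. The groups were 6 vehicle controls, with a treatment time of 0 h and titles that tag them for AMPA as well as kainate experiments, and 3 arrays for each of 5 h, 15 h and 24 h of exposure to 100 µM kainate. The 15 arrays lay on 3 chips that carried 2 controls and 1 array per kainate time, and each group held the same positions on every chip, so position, hours in culture and treatment cannot be told apart. The labels do not say that replicates were separate cultures, so p-values measure the spread between these samples, which may be technical.

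Each synthetase joins 1 amino acid to its tRNAs, the step that sets which amino acid a codon receives. Cytosol and mitochondria use separate enzymes for most amino acids, all encoded in the nucleus, and the mitochondrial set serves the few respiratory chain proteins made inside the organelle. Many cytosolic synthetase genes are known targets of ATF4, the transcription factor of the integrated stress response, which binds a C/EBP-ATF element in their promoters. In the nervous system, mutations of GARS, YARS, AARS and KARS cause human peripheral neuropathies, and mutations of mitochondrial members such as RARS2, PARS2 and EARS2 cause human encephalopathies.

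The promoters are shown first because they part the genes in a way that the array values did not choose. RefSeq windows on assembly GRCm38.p6, 250 bases before to 50 bases after 1 start site per gene, were held for 18 of the 23 genes and not for Cars, Nars, Pars2, Rars and Vars. The start site is not always the outermost end of the gene. The Aars window, for example, lies inside the annotated gene, which begins at 111027778. The core letters TGATGNAA of the C/EBP-ATF element were searched on both strands (TTNCATCA on the opposite one). They occurred in 1304 of 32851 windows of this length (3.97%) and in 5 of the 18 synthetase windows (27.8%). The 5 were Aars, Gars, Iars, Tars and Yars, which are 5 of the 6 genes with a window on the list of known ATF4 targets, the exception being Sars. None of the 9 mitochondrial windows (0.0%), nor those of Farsa, Farsb and Kars, held these letters. A match is a run of letters and not a site shown to be bound.

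The windows of 4 genes with a match and of Rars2, a mitochondrial gene without one, are printed 5′ to 3′ on the strand of the gene, with matches in capitals. They lie at chr8:111033592-111033891 on the plus strand (Aars, 2 matches), chr15:11399609-11399908 on the minus strand (Tars), chr6:55037751-55038050 on the plus strand (Gars), chr4:129189653-129189952 on the plus strand (Yars) and chr4:34614707-34615006 on the plus strand (Rars2).
Aars: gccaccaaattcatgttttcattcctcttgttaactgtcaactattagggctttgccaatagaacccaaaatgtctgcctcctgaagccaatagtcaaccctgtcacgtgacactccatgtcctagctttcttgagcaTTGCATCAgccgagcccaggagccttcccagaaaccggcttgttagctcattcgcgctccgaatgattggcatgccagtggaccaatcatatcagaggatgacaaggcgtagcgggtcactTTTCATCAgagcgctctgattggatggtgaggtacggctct
Tars: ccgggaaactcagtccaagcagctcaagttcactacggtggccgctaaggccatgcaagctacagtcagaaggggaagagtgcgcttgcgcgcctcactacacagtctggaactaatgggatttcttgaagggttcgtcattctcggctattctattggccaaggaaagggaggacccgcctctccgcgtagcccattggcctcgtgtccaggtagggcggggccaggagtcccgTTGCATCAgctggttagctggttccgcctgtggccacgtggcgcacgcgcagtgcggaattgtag
Gars: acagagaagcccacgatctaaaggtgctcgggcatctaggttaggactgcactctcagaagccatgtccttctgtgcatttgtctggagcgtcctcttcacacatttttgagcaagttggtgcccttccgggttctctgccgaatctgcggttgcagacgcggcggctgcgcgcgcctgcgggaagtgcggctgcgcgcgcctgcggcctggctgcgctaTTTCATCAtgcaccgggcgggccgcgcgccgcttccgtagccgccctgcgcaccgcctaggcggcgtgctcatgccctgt
Yars: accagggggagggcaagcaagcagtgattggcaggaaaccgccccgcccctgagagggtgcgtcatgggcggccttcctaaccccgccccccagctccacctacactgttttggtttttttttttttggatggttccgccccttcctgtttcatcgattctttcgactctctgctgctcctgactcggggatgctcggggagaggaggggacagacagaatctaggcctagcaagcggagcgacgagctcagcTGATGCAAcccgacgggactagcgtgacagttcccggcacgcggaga
Rars2: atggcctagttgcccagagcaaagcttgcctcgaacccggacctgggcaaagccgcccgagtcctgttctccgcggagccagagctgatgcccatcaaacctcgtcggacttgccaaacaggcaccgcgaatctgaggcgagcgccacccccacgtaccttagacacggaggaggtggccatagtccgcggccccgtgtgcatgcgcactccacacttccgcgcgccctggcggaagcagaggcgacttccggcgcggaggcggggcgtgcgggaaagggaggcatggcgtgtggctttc
The match lay on the strand opposite to the gene in Aars, Tars and Gars (TTGCATCA or TTTCATCA) and on the same strand in Yars (TGATGCAA).

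Array medians were 53.4 to 70.4 intensity units, the median number of beads per target was 34 to 35, and 49.5% to 55.2% of targets were detected. The brightest probe of each of the 23 genes, used for the gene unless another is named, was detected on all 15 arrays and rested on a median of 24 to 41 beads. Its raw signal ran from 56.9 to 10136.9 across genes and arrays. Levels below are log2 of the background-corrected, quantile-normalized intensity, differences are kainate minus control on that scale, errors of differences are standard errors (SE) of limma's model over 6 controls and 3 arrays per kainate time, and a gene is called where its adjusted p over all 14154 probes is below 0.05. Levels of different probes cannot be set against each other.

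Controls 1 and 3 differed from controls 2, 4, 5 and 6, and cytosolic synthetases were among the genes in which they did. They were the 2 highest controls for 9 of 23 synthetases (39.1%) and for 5 of the 8 measured synthetases on the ATF4 list (62.5%), against 18.9% of all probes tested. For the 27 measured genes of the list of ATF4 and its other targets the count was 22 (81.5%). Chac1, a glutathione-degrading ATF4 target, measured 11.42 and 11.30 in these 2 controls and 9.66 to 9.77 in the other 4. Differences of synthetases against control are therefore also given without these 2 arrays where that changes a call or moves a called value by over 1.5 times. Within each of the 3 chips the difference had the fitted sign for all 9 genes called at 5 h, all 12 at 15 h and all 9 at 24 h. The calls came from these same arrays, so the signs are no separate check, and the share over all probes is not given here. Among genes not called at 5 h, some, such as Kars and Sars, also kept the fitted sign on all 3 chips, and others, such as Cars, did not.

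Markers of the labelled cell were present. Of 10 measured neuron markers, 8 were detected on all arrays, and their mean level lay between 8.80 and 9.08 in controls and between 8.92 and 8.96 at 5 h. It lay between 8.31 and 8.42 at 15 h and between 8.36 and 8.39 at 24 h. The 8 astrocyte markers were detected as well, with a mean level between 9.75 and 9.89 in controls and between 10.10 and 10.16 at 5 h. Their mean lay between 10.76 and 10.86 at 15 h and between 10.55 and 10.70 at 24 h. Against control, 0 neuron markers were higher and 6 lower at 15 h, and 6 astrocyte markers were higher and 0 lower. Microglial markers (6 measured, 3 detected on all arrays) lay at 5.79 to 5.97 at 15 h, against 5.26 to 5.45 in controls. At 15 h 4 of the 6 were called higher and 1 lower. The largest rise was that of Lgals3 (mean 6.8 in controls and 8.4 at 15 h), and the lower one was Aif1 (5.7 and 5.32). The 2 endothelial markers stayed near background at 4.57 to 4.96. Of 8 measured neural progenitor markers, 5 were called higher and 0 lower at 5 h and 7 and 0 at 15 h, and their mean level lay between 8.17 and 8.46 at 5 h, against 7.52 to 7.76 in controls. Of 7 oligodendrocyte-lineage markers, 1 was called higher and 2 lower at 5 h, 0 and 0 at 15 h, and 3 and 0 at 24 h. In a bulk culture, fewer cells of a type and less RNA per cell cannot be told apart. The part of these marker shifts in the synthetase differences was not tested.

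At 5 h against control, which asks for the early response, synthetase genes were mostly lower where they differed at all. Yars, the cytosolic tyrosyl enzyme, rose by 0.49 ± 0.09 (1.40-fold, adjusted p = 0.000349) and was the only gene called higher. The mitochondrial prolyl and arginyl enzyme genes Pars2 and Rars2 fell by 0.90 ± 0.11 and 0.57 ± 0.08. In all, 1 gene was called higher and 8 lower of 23, where 38.6% of all probes tested were called, 17.9% higher and 20.8% lower. The called share of the synthetases (39.1%) was near that background, and its split was 34.8% lower and 4.35% higher. The median difference was -0.175 over the 23 genes and -0.027 over all probes. Without controls 1 and 3 the counts were 3 higher and 8 lower, Sars and Nars being added above.

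At 15 h against control, with neuron markers low and astrocyte markers high, 1 synthetase gene was called higher and 11 lower. The background was 45.3% of probes called, 21.8% higher and 23.4% lower, against 52.2% of synthetases, 4.35% higher and 47.8% lower. The median difference was -0.277 over the 23 genes, with all probes at -0.03. Farsb, a subunit of the cytosolic phenylalanyl enzyme, fell most (by 0.88 ± 0.08), followed by Pars2 (by 0.80 ± 0.11) and Nars (by 0.73 ± 0.15). Fars2, the mitochondrial phenylalanyl enzyme, rose by 0.32 ± 0.11 (adjusted p = 0.0222).

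At 24 h against control, 1 gene was called higher and 8 lower, against a background of 43.0% (21.1% higher and 21.9% lower). The called share was 39.1%, with 34.8% lower, and the median difference was -0.153, with all probes at -0.011. Pars2, Farsb and Nars again had the largest falls, by 0.75 ± 0.11, 0.72 ± 0.08 and 0.66 ± 0.15, and Farsa was called higher at 0.40 ± 0.13. The 3 comparisons share the same 6 controls, so their common members are not independent. Dividing each array by its own median without background correction (median scaling below), in place of background correction and quantile normalization, moved the median of all probes at 24 h to -0.114, and the counts at 24 h are then 0 higher and 15 lower among synthetases and 1688 higher and 4961 lower among all probes, beside 2988 and 3094 with background correction and quantile normalization. Of the synthetases called against control, median scaling ended the calls of Farsb, Gars, Lars2 and Nars2 at 5 h, Fars2 at 15 h and Farsa at 24 h. It added Aars and Rars, both lower, at 15 h, and Aars, Ears2, Fars2, Kars, Lars2, Rars and Wars2, all lower, at 24 h. The authors' deposited ratios gave the same calls. The direction of the synthetase median against control was negative at all 3 times under every scaling tried.

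**Figure D1:**
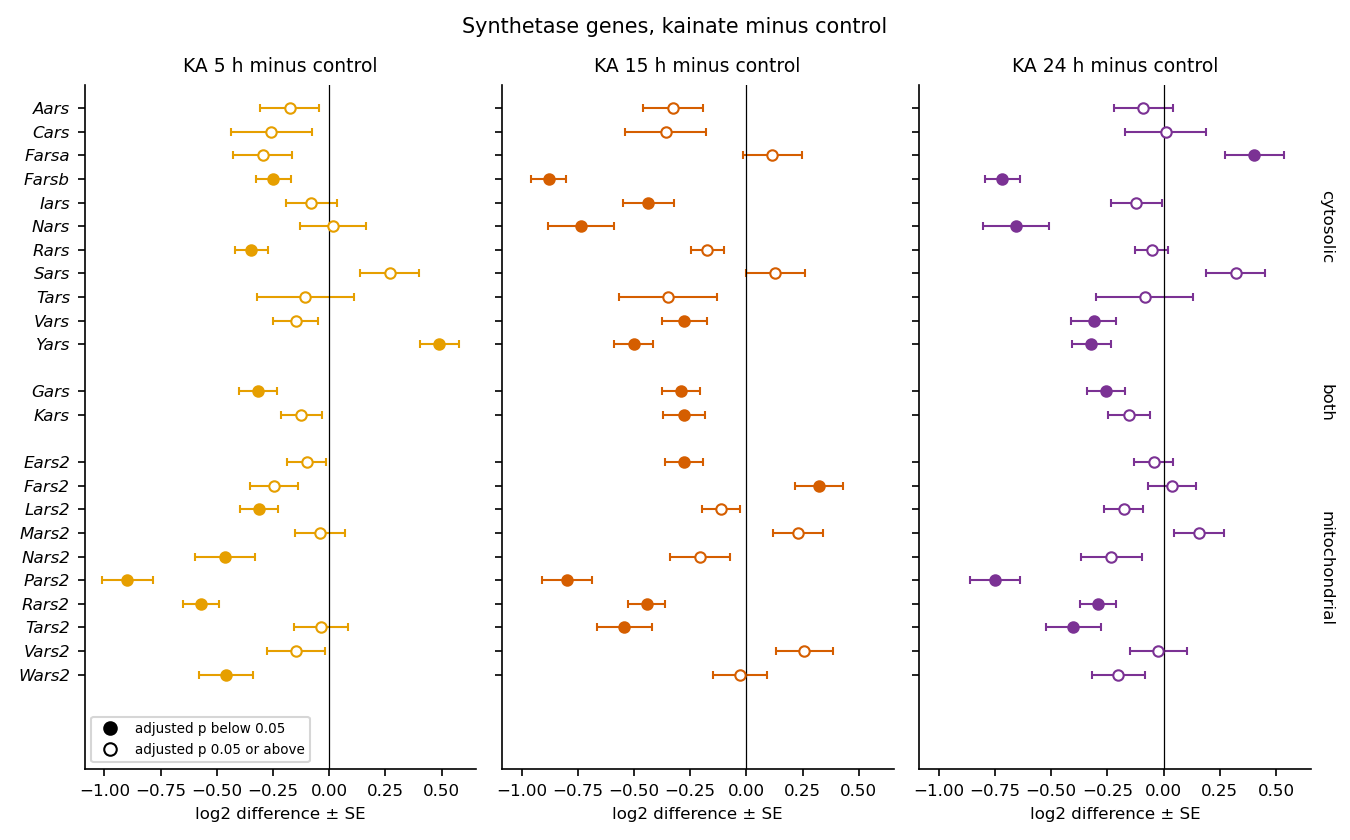
Log2 difference of the 23 synthetase genes, kainate minus control, at 5 h (left), 15 h (middle) and 24 h (right); points are fitted differences, bars are SE (3 kainate against 6 control arrays), filled points have an adjusted p below 0.05. Most filled points lie left of 0; Yars at 5 h, Fars2 at 15 h and Farsa at 24 h are the filled points to the right.

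The mitochondrial enzymes held the largest differences at 5 h. All 10 had a negative fitted difference there, with a median of -0.279, and 5 of the 10 were called lower and 0 higher. With median scaling the list's median at 5 h was -0.182 and 3 were called. The median at 15 h was -0.16 (4 lower, 1 higher) and at 24 h -0.19 (3 lower, 0 higher). At 5 h Mars2 and Tars2 were near 0, at -0.04 each. Of the 13 cytosolic and shared genes, 10 also had a negative difference at 5 h, as did 7505 of all 14154 probes. Over all probes 20.8% were called lower and 17.9% higher at 5 h.

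Pars2 charges mitochondrial proline tRNA. Its probe had a lowest, median and highest level of 6.67, 6.82 and 7.16 in the 6 controls, 5.78, 5.93 and 6.14 at 5 h, 5.97, 5.99 and 6.19 at 15 h, and 6.03, 6.07 and 6.19 at 24 h. Every kainate array lay below every control, and the 3 kainate times overlapped one another. The level at 5 h was 0.537-fold that of controls (adjusted p = 1.29e-05), at 15 h 0.576-fold (adjusted p = 2.28e-05) and at 24 h 0.594-fold (adjusted p = 4.68e-05). Within the 3 chips the 5 h difference was -0.99, -1.02 and -0.68.

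Rars2 charges mitochondrial arginine tRNA. Its brighter probe read 8.75, 8.86 and 8.98 in controls (lowest, median, highest), 8.18, 8.27 and 8.43 at 5 h, 8.37, 8.41 and 8.47 at 15 h, and 8.53, 8.58 and 8.60 at 24 h. No kainate array reached the controls, and the 5 h arrays lay lowest on average. The fall was 0.57 ± 0.08 at 5 h (adjusted p = 4.92e-05), 0.44 ± 0.08 at 15 h (adjusted p = 0.000293) and 0.29 ± 0.08 at 24 h (adjusted p = 0.0081). A second Rars2 probe, dimmer but detected on all 15 arrays, differed by -0.63 ± 0.16 at 5 h (adjusted p = 0.00569), and by -0.37 and -0.39 at 15 h and 24 h without passing the test.

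Wars2, the mitochondrial tryptophanyl enzyme, was called lower at 5 h. Its probe gave 6.60, 6.61 and 6.65 on the 5 h arrays against 6.78, 7.14 and 7.36 in controls (lowest, median, highest), without overlap. The difference was -0.46 ± 0.12 (adjusted p = 0.00618). The 15 h arrays, at 6.90, 7.11 and 7.14, lay inside the control range. Controls 1 and 3 were the 2 lowest controls here, and without them the difference was -0.59 at 5 h and became called at 24 h, at -0.33 (adjusted p = 0.0085). In a model that gives controls 1 and 3 and the 5 h arrays, the 5 arrays on which 1 bright target had a low detection score, a level of their own (the 5-array level below), the 5 h difference was -0.19 and not called (adjusted p = 0.188). A second Wars2 probe was detected on 3 arrays and was called at no time. It differed by 0.20, 0.23 and 0.03 at 5 h, 15 h and 24 h, the opposite direction to the brighter probe at 5 h.

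Nars2 and Lars2, the mitochondrial asparaginyl and leucyl enzymes, were called at 5 h as well. Nars2 had 5.46, 5.65 and 5.83 at 5 h against 5.88, 6.11 and 6.31 in controls (adjusted p = 0.0124), a call lost without the second 5 h array (difference -0.37), with median scaling (-0.25, adjusted p = 0.0526) and with the 5-array level (-0.46, adjusted p = 0.0561). Lars2 had 7.24, 7.26 and 7.30 at 5 h against 7.38, 7.61 and 7.73 in controls (a difference of -0.31, adjusted p = 0.00923). This call was lost with median scaling (-0.16, adjusted p = 0.147) and with the 5-array level (-0.25, adjusted p = 0.0815). Neither gene's 5 h arrays overlapped the controls. At 15 h and 24 h neither gene was called, but Lars2 passed at 24 h without controls 1 and 3 (-0.21, adjusted p = 0.0476), without control 3 alone (-0.22) and with median scaling (-0.35). Nars2, at -0.23 at 24 h, passed there without the third 24 h array (-0.41, adjusted p = 0.021).

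Tars2, the mitochondrial threonyl enzyme, was called lower at 15 h and 24 h, and Ears2, the glutamyl enzyme, at 15 h. Tars2 read 6.94, 7.32 and 7.43 in controls, 7.12, 7.26 and 7.33 at 5 h, 6.61, 6.64 and 6.94 at 15 h, and 6.66, 6.92 and 7.03 at 24 h. The 5 h arrays lay within the control range, while at 15 h the highest array and the lowest control both read 6.94. Tars2 fell by 0.54 ± 0.12 at 15 h (adjusted p = 0.00151) and by 0.40 ± 0.12 at 24 h (adjusted p = 0.0129), and the 24 h call was lost without the third array (-0.29). Ears2 fell by 0.28 ± 0.09 at 15 h, with 6.92, 6.94 and 7.09 against 7.13, 7.27 and 7.41 in controls (adjusted p = 0.0147), a call lost without the second or the third 15 h array (-0.24 and -0.26). At 24 h Ears2 differed by -0.04 (adjusted p = 0.711), or by -0.22 with median scaling, which was called (adjusted p = 0.0414).

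Fars2 was the mitochondrial member called higher. It had 9.97, 10.09 and 10.20 in controls, 9.83, 9.84 and 9.84 at 5 h, 10.35, 10.43 and 10.44 at 15 h, and 9.86, 10.03 and 10.47 at 24 h. The 5 h arrays lay below all controls, although the difference of -0.25 did not pass (adjusted p = 0.0831), and the 15 h arrays above all of them. The 24 h arrays spread over more than the control range, the third standing apart. With median scaling, which also leaves out background correction, the 15 h difference was 0.17 (adjusted p = 0.266), and the call was also lost without the second or the third 15 h array (0.31 each). Mars2 and Vars2, for methionine and valine, were called at no time, with differences at 15 h of 0.23 ± 0.11 and 0.26 ± 0.13; without controls 1 and 3 Vars2 was called at 0.37 (adjusted p = 0.0158), and without control 1 or control 5 Mars2 was called at 0.29 and 0.28.

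**Figure D2:**
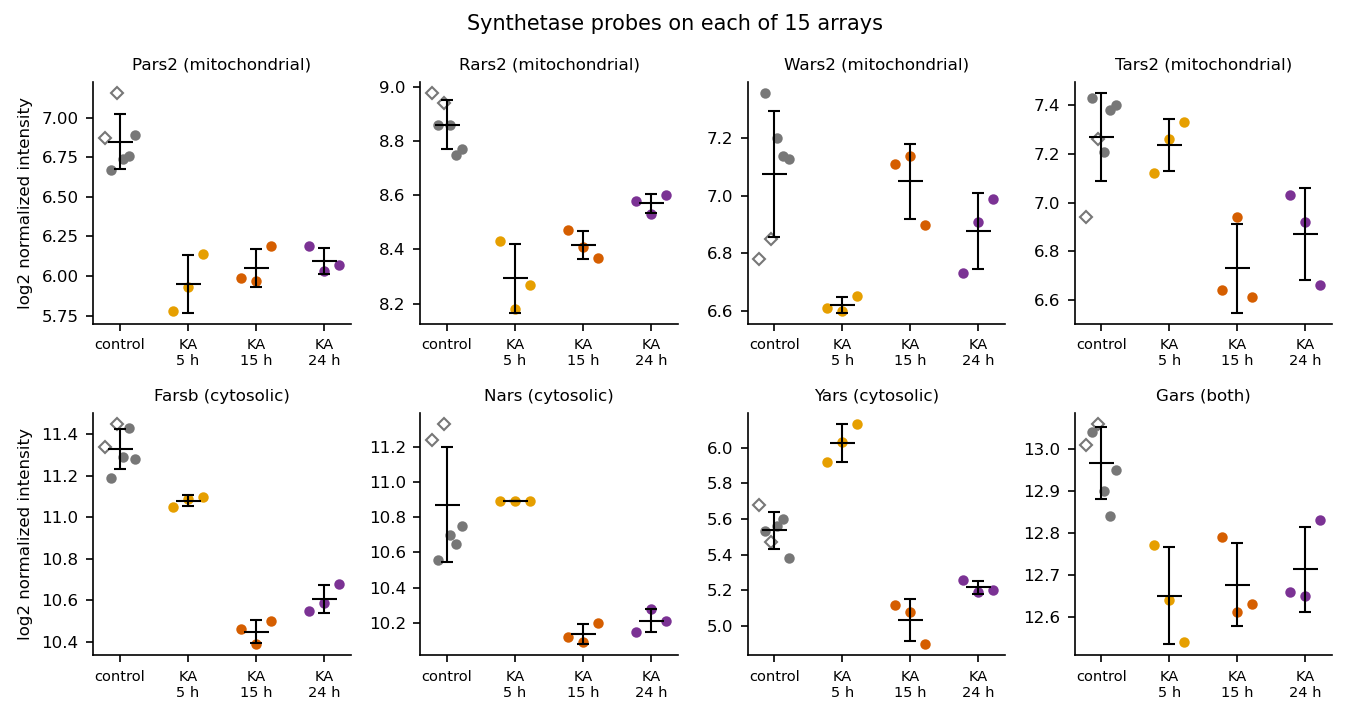
Log2 normalized intensity (vertical axes, which start above 0) of 8 synthetase probes on each array, by group; filled points are arrays, open diamonds are control replicates 1 and 3, and black marks are means ± SD (n = 6 controls, 3 per kainate time). Pars2 and Rars2 lie below the controls at every kainate time, Farsb and Nars fall lowest at 15 h and 24 h, and Yars is above the controls at 5 h and below them later.

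Among the 11 cytosolic and 2 shared enzymes, 3 were called lower and 1 higher at 5 h, 7 and 0 at 15 h, and 5 and 1 at 24 h. Their median difference was -0.15, -0.326 and -0.122 at the 3 times. Without controls 1 and 3 the counts were 3 lower and 3 higher at 5 h, 7 and 1 at 15 h, and 3 and 2 at 24 h. The share of all probes called without these 2 controls is not given here.

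Farsa and Farsb encode the alpha and beta subunits of 1 enzyme, cytosolic phenylalanyl-tRNA synthetase, and their probes moved differently. Farsb read 11.19, 11.31 and 11.45 in controls, 11.05, 11.09 and 11.10 at 5 h, 10.39, 10.46 and 10.50 at 15 h, and 10.55, 10.59 and 10.68 at 24 h. Each kainate time lay below all controls, and both later times below all 5 h arrays. The level was 0.544-fold that of controls at 15 h (adjusted p = 1.67e-07) and 0.608-fold at 24 h (adjusted p = 1.72e-06). The smaller fall at 5 h (by 0.25 ± 0.08, adjusted p = 0.0195) was lost when any 1 of the 5 h arrays was left out (-0.24, -0.25 and -0.26) and with median scaling (-0.17, adjusted p = 0.177).

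Farsa read 6.35, 6.57 and 7.05 in controls, 6.19, 6.41 and 6.45 at 5 h, 6.62, 6.82 and 6.84 at 15 h, and 7.0, 7.02 and 7.12 at 24 h. Its control range was wide, with controls 2 and 4 highest, and the 24 h arrays overlapped it. The difference at 24 h, 0.40 ± 0.13 (adjusted p = 0.0198), was called, but it was 0.35 without controls 1 and 3 (adjusted p = 0.0557), 0.37 without the second 24 h array (adjusted p = 0.0752) and 0.16 with median scaling (adjusted p = 0.286). At 5 h the difference of -0.30 did not pass, and it did without control 5 (-0.36). The difference between the subunits was not itself tested.

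Nars, the cytosolic asparaginyl enzyme and an ATF4-list gene, had no called difference at 5 h and was lower afterwards. It read 10.56, 10.72 and 11.33 in controls, 10.89 on each of the 3 arrays at 5 h, 10.09, 10.12 and 10.20 at 15 h, and 10.15, 10.21 and 10.28 at 24 h. Controls 1 and 3, at 11.24 and 11.33, lay above the 5 h arrays and the other 4 controls, at 10.56 to 10.75, below them. At 5 h the difference was 0.02 with all controls (adjusted p = 0.933) and 0.23 without these 2, when it was called (adjusted p = 0.0245). With the 5-array level, which sets the 5 h arrays against controls 1 and 3 alone, it was -0.40, called in the opposite direction (adjusted p = 0.00297). Nars fell by 0.73 ± 0.15 at 15 h (adjusted p = 0.000635) and by 0.66 ± 0.15 at 24 h (adjusted p = 0.00172), and without the 2 controls by 0.53 and 0.45, both called.

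Yars was higher at 5 h and lower at 15 h and 24 h. Its probe read 5.38, 5.54 and 5.68 in controls, 5.92, 6.03 and 6.13 at 5 h, 4.90, 5.08 and 5.12 at 15 h, and 5.19, 5.20 and 5.26 at 24 h. The 5 h arrays lay above every control and the later arrays below every control. After its rise at 5 h it fell to 0.706-fold of the control level at 15 h (adjusted p = 0.000171) and to 0.801-fold at 24 h (adjusted p = 0.00657). Controls 1 and 3 did not stand apart for this probe. Without background correction the 5 h difference was 0.31 in place of 0.49, and still called.

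Gars, the glycyl enzyme of both compartments, was slightly lower at each time. It read 12.84, 12.98 and 13.06 in controls, 12.54, 12.64 and 12.77 at 5 h, 12.61, 12.63 and 12.79 at 15 h, and 12.65, 12.66 and 12.83 at 24 h. All 9 kainate arrays lay below all controls. Gars fell by 0.32 ± 0.09, 0.29 ± 0.09 and 0.26 ± 0.09 (adjusted p = 0.00831, 0.0109 and 0.0233). The 5 h call was lost with median scaling (-0.12, adjusted p = 0.425) and without the third 5 h array (-0.26), the 15 h call without the second 15 h array (-0.26), and the 24 h call without its first or second array (-0.23 and -0.22) or without controls 1 and 3 (-0.22, adjusted p = 0.0537).

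Rars, Iars and Kars are the measured enzymes, 3 of 8, of the multi-synthetase complex, in which several cytosolic synthetases sit on scaffold proteins. Rars, for arginine, fell by 0.35 ± 0.07 at 5 h (adjusted p = 0.00165), with 8.95, 9.06 and 9.13 against 9.33, 9.38 and 9.49 in controls, and was not called later with the processing used here. At 15 h the difference of -0.17 (adjusted p = 0.0687) passed under 9 of the 26 alternatives, at -0.17 to -0.29, among them median scaling (-0.29, adjusted p = 0.00905) and the omission of controls 1 and 3 (-0.20, adjusted p = 0.0439). At 24 h Rars differed by -0.05, or by -0.35 with median scaling, which was called (adjusted p = 0.00197). Iars, for isoleucine, fell by 0.44 ± 0.11 at 15 h (adjusted p = 0.0046), with 4.77, 5.12 and 5.13 against 5.27, 5.41 and 5.67 in controls. Kars, for lysine, fell by 0.28 ± 0.09 at 15 h (adjusted p = 0.0215), with 9.58, 9.77 and 9.92 against 9.93, 10.05 and 10.12 in controls. Rars thus passed at 5 h and Iars and Kars at 15 h, each with kainate arrays below all controls at its own time. At 24 h Kars differed by -0.15, or by -0.48 with median scaling, which was called (adjusted p = 0.000251). Kars lost its 15 h call without the first or the third 15 h array (-0.19 and -0.28), and Iars without the first (-0.32).

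The scaffold proteins of the complex were measured with 1 probe each. Aimp2 fell by 0.62 at 15 h (adjusted p = 0.00357) and Eef1e1 by 0.50 at 15 h (adjusted p = 0.00346) and 0.33 at 24 h (adjusted p = 0.0408). Neither was called at 5 h with all controls (-0.36 and -0.31), and both were without controls 1 and 3 (-0.49, adjusted p = 0.014, and -0.36, adjusted p = 0.0295). Aimp1 differed by -0.02, -0.07 and 0.05 at the 3 times and was not called.

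Vars, the cytosolic valyl enzyme, was lower at the later times. It read 8.90, 9.02 and 9.24 in controls, 8.84, 8.87 and 9.0 at 5 h, 8.61, 8.84 and 8.87 at 15 h, and 8.65, 8.67 and 8.91 at 24 h. The differences of -0.28 ± 0.10 at 15 h (adjusted p = 0.0326) and -0.31 ± 0.10 at 24 h (adjusted p = 0.0188) were called with all controls. Without controls 1 and 3 they were -0.20 and -0.23 and were not called (adjusted p = 0.0959 and 0.0557). Leaving out control 1 or control 3 alone also ended the 15 h call (-0.25 and -0.24), as did leaving out the first or the third 15 h array (-0.31 and -0.20), and the 24 h call was lost without its first or second array (-0.26 and -0.28).

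Aars, Cars, Sars and Tars, the alanyl, cysteinyl, seryl and threonyl enzymes of the cytosol, all on the ATF4 list, were called at no time with the 6 controls and the processing used here. Their controls were split. Aars read 12.46 and 12.41 in controls 1 and 3 and 11.83 to 11.93 in the other 4, while the 5 h arrays lay between 11.86 and 11.97, the 15 h arrays between 11.68 and 11.78 and the 24 h arrays between 11.89 and 12.03. Cars read 9.83 and 9.67 in those 2 controls and 8.90 to 9.0 in the other 4, while the 5 h arrays lay between 8.90 and 9.06, the 15 h arrays between 8.83 and 8.90 and the 24 h arrays between 9.13 and 9.30. Tars read 7.97 and 7.68 in them and 6.76 to 7.11 in the others, while the 5 h arrays lay between 6.91 and 7.23, the 15 h arrays between 6.74 and 7.06 and the 24 h arrays between 7.03 and 7.20.

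All kainate arrays of Aars, Cars and Tars lay below controls 1 and 3 and nearer to controls 2, 4, 5 and 6, with Cars at 24 h above these 4 and Aars at 15 h below them. Without the 2 controls, Cars was called higher at 24 h (0.28, adjusted p = 0.00789), Aars and Tars still at no time. A second, dimmer Cars probe then differed in the other direction at 24 h, by -0.21, and was not called (adjusted p = 0.207). The 5-array level instead made Aars (-0.53), Cars (-0.79) and Tars (-0.71) called lower at 5 h, as well as Vars (-0.31) and Vars2 (-0.38). It sets the 5 h arrays against controls 1 and 3 alone, the highest controls for each of these genes, so more negative differences followed from that setting. With all 6 controls the 5 h differences of Aars, Cars and Tars were -0.18, -0.26 and -0.11, and without controls 1 and 3 they were 0.00, 0.01 and 0.19, none of them called. With all 6 controls Aars differed at 15 h by -0.33 ± 0.13 (adjusted p = 0.0551), which passed when control 2, 4, 5 or 6 was left out (-0.35 to -0.37) and under 6 further alternatives, among them median scaling (-0.52, adjusted p = 0.00667) and quantile normalization without background correction (-0.32, adjusted p = 0.0419). At 24 h Aars differed by -0.09, or by -0.52 with median scaling, which was called (adjusted p = 0.00642).

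Sars, whose product also charges the selenocysteine tRNA with serine, read 9.89, 10.14 and 10.66 in controls, 10.40, 10.49 and 10.52 at 5 h, 10.26, 10.32 and 10.40 at 15 h, and 10.43, 10.49 and 10.64 at 24 h. Controls 1 and 3, at 10.35 and 10.66, overlapped the kainate arrays, and the other 4, at 9.89 to 10.17, lay below all of them. With all 6 controls the differences were 0.27, 0.13 and 0.32, and none passed in the main fit. At 24 h the difference passed with quantile normalization without background correction (0.31, adjusted p = 0.046) and with the detection scores as deposited (0.33, adjusted p = 0.0498). The 5-array level gave calls at 15 h (0.28, adjusted p = 0.0248) and 24 h (0.47, adjusted p = 0.000817). Over the 26 alternatives the 24 h difference ran from -0.07 to 0.47. Without controls 1 and 3 the differences were 0.42, 0.28 and 0.47, all called (adjusted p = 0.00152, 0.0171 and 0.000516). Leaving out control 3 alone gave 0.36 at 5 h and 0.41 at 24 h, both called, while leaving out control 1 alone gave 0.35 at 24 h. A second Sars probe, also detected on all 15 arrays, differed by -0.37, -0.53 and -0.53 and was not called, so that the 2 probes disagree in direction. The second probes of Cars, Tars and Vars were dimmer and detected on 11 to 13 arrays, and passed no test against control with all 6 controls. The second Vars probe was called at 15 h without controls 1 and 3 (-0.54, adjusted p = 0.0464). With all controls it differed by 0.25 at 5 h, against -0.15 for the brighter probe. At 15 h against 5 h it was called lower (-0.67, adjusted p = 0.0428), and the brighter probe was not (-0.13, adjusted p = 0.428).

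**Figure D3:**
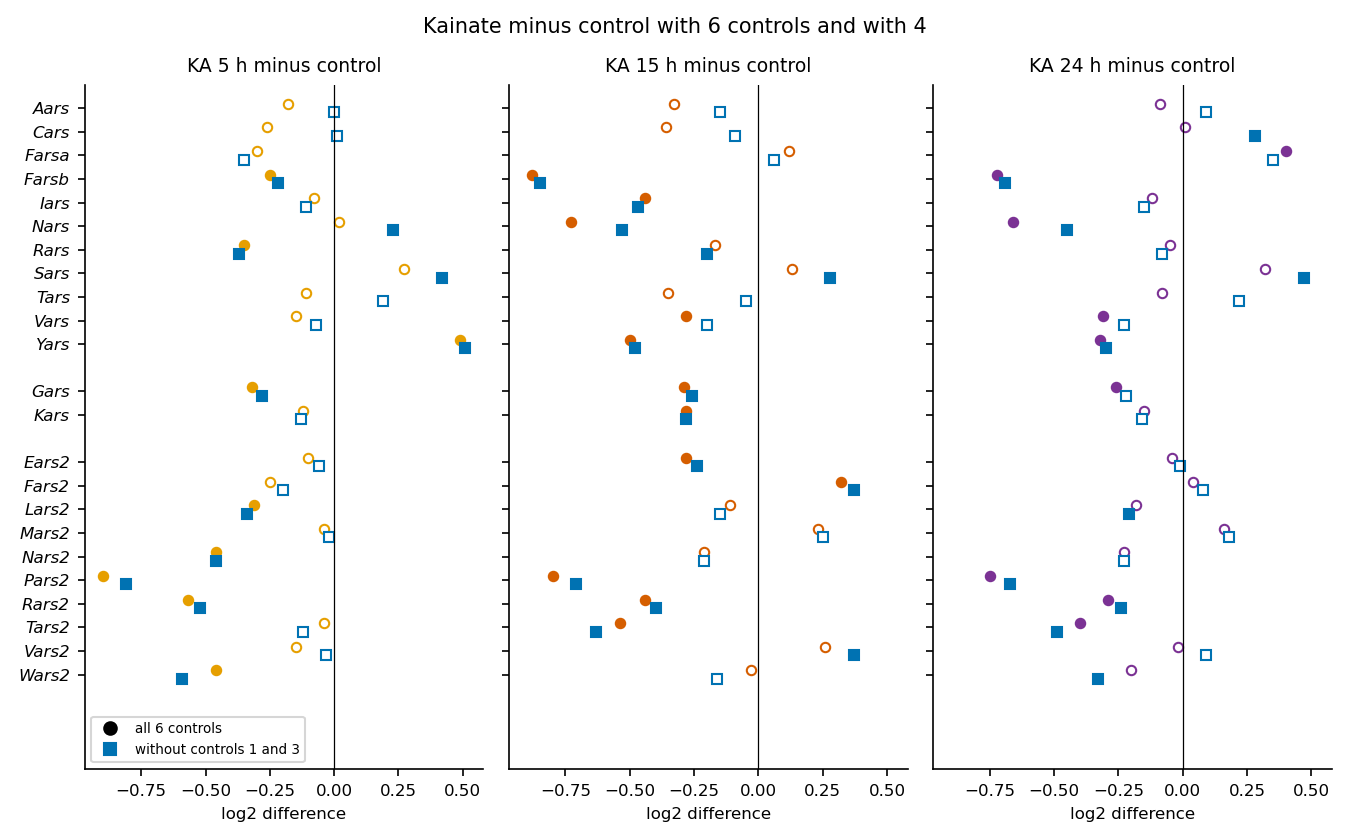
Log2 difference of the 23 synthetase genes, kainate minus control, with all 6 controls (circles) and without control replicates 1 and 3 (blue squares), at 5 h, 15 h and 24 h; filled symbols have an adjusted p below 0.05. Squares shift to the right for Aars, Cars, Nars, Sars and Tars, and the symbols of Farsb, Rars2 and Yars are filled with and without these controls at all 3 times.

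The comparison of 15 h with 5 h uses no control values except in its error, and synthetases were called in both directions. Of 23 genes, 4 were called higher (17.4%) and 5 lower (21.7%). These shares were near those of all probes, of which 33.0% were called, 17.0% higher and 16.0% lower. Lower at 15 h than at 5 h were Yars (-0.99 ± 0.10, adjusted p = 2.8e-06), Nars (-0.75 ± 0.17, adjusted p = 0.00285), Farsb (-0.63 ± 0.09, adjusted p = 7.37e-05), Tars2 (-0.51 ± 0.14, adjusted p = 0.0105) and Iars (-0.36 ± 0.13, adjusted p = 0.0451). Higher were Fars2 (0.57 ± 0.12, adjusted p = 0.00236), Wars2 (0.43 ± 0.14, adjusted p = 0.024), Farsa (0.41 ± 0.15, adjusted p = 0.0465) and Vars2 (0.41 ± 0.15, adjusted p = 0.0437). In all 9 genes the 15 h and 5 h arrays did not overlap, but the genes were called on these same arrays. The share of all probes without overlap is not given here.

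The 5-array level ended the calls of Nars (-0.13, adjusted p = 0.41), Wars2 (0.03, adjusted p = 0.882), Farsa (0.25) and Iars (-0.45), and median scaling those of Wars2 (0.22), Farsa (0.22), Vars2 (0.19) and Iars (-0.22). With no detection filter Farsa, Iars and Vars2 were not called either (adjusted p = 0.0719, 0.0586 and 0.0658). Detection scores as deposited also ended the calls of Farsa and Iars (adjusted p = 0.0542 and 0.0948). Quantile normalization without background correction ended that of Iars (-0.19, adjusted p = 0.0856).

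By compartment, 3 of the 10 mitochondrial genes were called higher and 1 lower (median 0.228), while 1 of the 13 other genes was called higher and 4 lower (median -0.151). With median scaling these medians were 0.078 and -0.301, with 1 higher and 2 lower among the mitochondrial genes and 0 and 5 among the others. The difference between the compartments was not tested. Leaving out the first or second array of either time ended the Wars2 call (0.38 to 0.42) and the Vars2 call (0.32 to 0.41), with 1 gene instead of 4 then called higher. The calls of Farsa and Iars were lost without any 1 of the 5 h arrays (0.33 to 0.46 and -0.30 to -0.39), and without the first 15 h array (0.37 and -0.24), and narrowly also without several single arrays of the other groups (adjusted p = 0.0503 to 0.0551). Farsa also lost its call without the second 15 h array (0.38, adjusted p = 0.128). Of the 26 alternatives, 12 kept the call of Farsa, 13 that of Iars and 14 that of Vars2.

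At 24 h against 15 h no synthetase was called in limma's test (0 of 23), against a background of 0.643% (0.219% higher and 0.424% lower). At an unadjusted p below 0.05 there were 3, Iars, Ears2 and Fars2. Leaving out the third 24 h array made Fars2 called (-0.46, adjusted p = 0.02), and without controls 1 and 3 Cars was called (0.37, adjusted p = 0.0363). The second Cars probe then differed by -0.02 and was not called. The median difference was 0.124, with 7 of the 23 fitted differences below 0.

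**Figure D4:**
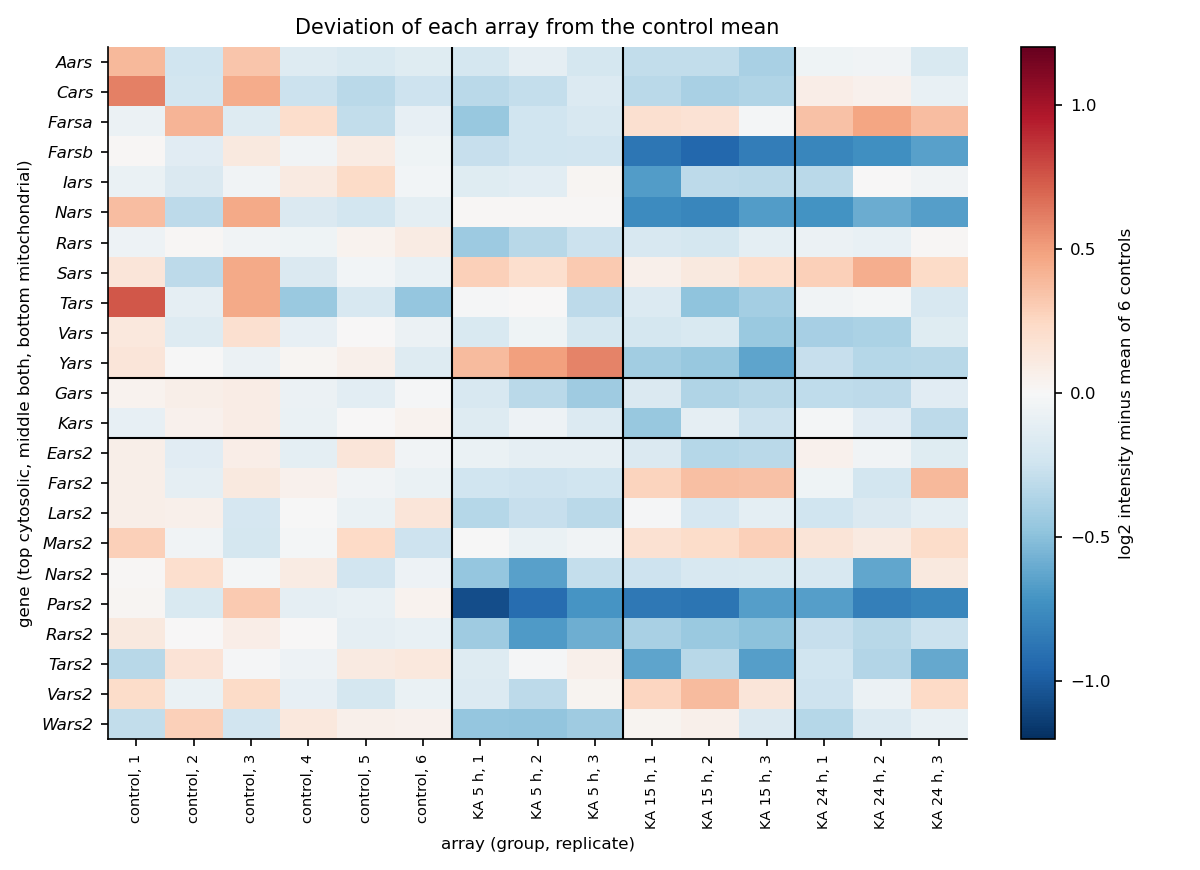
Log2 intensity of the 23 synthetase genes (rows, in 3 blocks by compartment) on each of the 15 arrays (columns, by group and replicate), as the deviation from the mean of the 6 controls; red is above and blue below it. Controls 1 and 3 are red for Aars, Cars, Nars, Sars and Tars; Pars2 is blue on all 9 kainate arrays, and Farsb and Nars on the 6 arrays at 15 h and 24 h.

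ATF4 and its other known targets were counted beside the synthetases. Of 27 measured genes of 32 listed, 11 were called higher and 2 lower at 5 h (median 0.345), 7 and 4 at 15 h (median 0.121), and 7 and 6 at 24 h (median -0.008). The called shares were 48.1%, 40.7% and 48.1%, where 38.6%, 45.3% and 43.0% of all probes were called. Of the 8 synthetases on the ATF4 list, 1 was called higher and 1 lower at 5 h (median -0.093), 0 and 4 at 15 h (median -0.353), and 0 and 3 at 24 h (median -0.106). Atf4 itself rose by 1.13 at 5 h (adjusted p = 0.000141), and the stress genes Ppp1r15a, Atf3 and Cebpb by 2.60, 2.58 and 2.11. Without controls 1 and 3 the other targets had 19 higher and 2 lower at 5 h (median 0.611), 12 and 5 at 15 h and 12 and 6 at 24 h. The 8 synthetases then had 3 higher and 1 lower at 5 h (median 0.102), 1 and 4 at 15 h and 2 and 2 at 24 h. With the 5-array level the other targets had 7 higher and 10 lower at 5 h (median -0.116), and the synthetases 1 higher and 5 lower (median -0.391). That setting compares the 5 h arrays with controls 1 and 3 alone. These were the 2 highest controls for 22 of the 27 other targets and 5 of the 8 synthetases. The share of all probes called without controls 1 and 3, or with the 5-array level, is not given here. The lists were chosen with earlier results known, and no test of their difference was made.

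Other factors of tRNA charging and maturation were measured for 8 of 13 listed genes. At 5 h 1 was called higher and 3 lower, at 15 h 2 and 4, and at 24 h 1 and 3, where 38.6%, 45.3% and 43.0% of all probes were called. Prorsd1, a homologue of bacterial editing domains that remove mischarged amino acids, rose by 0.64, 0.74 and 0.53. Qrsl1, a subunit of the mitochondrial amidotransferase that completes glutamine tRNA, fell by 0.69 at 15 h and 0.52 at 24 h, and Mtfmt, which formylates the mitochondrial initiator tRNA, fell by 0.47 at 5 h and 0.55 at 15 h. Aarsd1, an alanyl editing protein, fell by 0.33 at 5 h and 0.75 at 15 h, and Tarsl2, a second threonyl enzyme gene, by 0.56 at 15 h and 0.63 at 24 h. Tarsl2 (-0.38) and Qrsl1 (-0.35) were also called at 5 h without controls 1 and 3, while Gatb, a further subunit of that amidotransferase, lost its calls at 5 h and 24 h (-0.42 and -0.35, against -0.57 and -0.50 with all controls).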

How the data were processed

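Total RNA of 15 samples of mouse cortical neurons was read on Illumina bead arrays. The authors deposited mean bead intensities per target, which BeadStudio 3.2.3 exported without normalization, per the file headers. Beside them stands a detection score for each target, deposited as a fraction and equal to 1 minus a detection p, a direction checked on the values. The authors' normalized table holds a linear ratio, each array divided by its median and each target by its median over the 6 controls, as worked out from the values themselves (largest relative difference 0.00151). Numbers of beads were deposited beside them. A further 72 columns of 9 arrays that match no sample were not used.

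Intensities were processed with limma 3.58.1 in R 4.3.3 (neqc, offset 16) to log2 values, the deposited scores serving to infer the negative controls. On controls 1 and 3 and on all 3 arrays of 5 h, 1 target with signals over 1000 and a score below 1 inflated the inferred negative-control spread (108 to 180 intensity units, against 5.38 to 7.12 on the others), and was left out, after which it was 5.38 to 7.63. Probes with a score above 0.95 on 3 or more arrays were tested (14154). One model of 4 group means over all 15 arrays gave moderated two-sided tests, adjusted by Benjamini-Hochberg over all probes (limma, 15.8 residual degrees of freedom with the prior). The test was checked on simulated data.

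Targets were named from the platform annotation: 20854 had 1 symbol, 1 had several and 3752 none. A gene is represented by its probe with the highest mean over all arrays, and any member may be named, with values by array for the called genes of largest difference and for some not called. Promoters came from RefSeq (GRCm38.p6). The members and lists were chosen with earlier results of these data known. Kainate and control arrays share replicate numbers, and of 9 same-numbered pairs 3 had a correlation of deviations above 0.1, the highest 0.302. Of 18 kainate and control pairs on the same chip, 8 were above 0.1, with a range of -0.275 to 0.320. Neither replicate number nor chip was used in the main fit, but these correlations cannot exclude that either pairs the samples. Alternatives changed the normalization, the detection filter, the repair of scores, the chip or replicate block, the controls and the arrays used. Bead numbers and the 3 arrays per time limit the precision. Figures were drawn with Python 3.11.15 and matplotlib 3.10.9.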

Additional observations from a re-analysis of the deposited data

Results flagged for a closer look

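Comparing 15 h with 5 h, 9 of the 23 synthetase genes (39.1%) passed limma's test of the difference between the 2 effects, which share their controls, against 33.0% of all probes tested. Yars differed by -0.99, Nars by -0.75, Farsb by -0.63, Tars2 by -0.51 and Iars by -0.36 on the log2 scale, while Farsa differed by 0.41, Vars2 by 0.41, Wars2 by 0.43 and Fars2 by 0.57. All 3 arrays of the 15 h group lay on 1 side of all 3 arrays of the 5 h group in each of these genes, which the test had picked on the same arrays. Yars was called in opposite directions at the 2 times, higher at 5 h and lower at 15 h. For none of the 23 genes did a single control stand apart from the other 5 by the gap between them. The 2 highest controls were replicates 1 and 3 for 9 of these genes.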

How the results depend on the processing

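Under all 26 alternatives, Pars2, Rars, Rars2 and Yars kept their call at 5 h, Farsb, Nars, Pars2, Rars2, Tars2 and Yars at 15 h, Farsb, Nars, Pars2, Rars2 and Yars at 24 h, and Fars2, Farsb, Tars2 and Yars at 15 h against 5 h. Median scaling without background correction, and likewise the authors' deposited ratios, gave 4 genes lower at 5 h, 0 higher at 15 h, 0 higher and 15 lower at 24 h, and 1 higher at 15 h against 5 h, and turned Fars2 at 24 h to -0.31. Median scaling also moved the share of higher and lower calls over all probes, to 3057 higher and 2089 lower at 5 h (2531 and 2939 with background correction and quantile normalization) and to 1398 higher and 3281 lower at 15 h against 5 h (2407 and 2260). Without controls 1 and 3 there were 3 genes higher at 5 h, 3 at 15 h, 2 at 24 h, and 1 at 24 h against 15 h. With a level of their own for these 2 controls and the 5 h arrays there were 3 higher at 15 h, 3 at 24 h and 1 at 24 h against 15 h, 3 lower at 15 h against 5 h, and reversals of Nars at 5 h (-0.40) and of Aars, Cars and Tars at 15 h against 5 h (0.39, 0.69 and 0.66). The 5 h arrays are then compared with these 2 controls alone. They were the highest controls for Nars, Aars, Cars and Tars, so the reversals rest on that choice of controls. Quantile normalization without background correction and detection scores as deposited each gave 2 higher at 24 h, and no detection filter gave 2 higher at 15 h against 5 h. With the replicate number as a block, 0 genes were higher at 15 h and 0 at 24 h. Controls 4, 5 and 6 then have no partner, and the differences rest on controls 1, 2 and 3. Cars was called lower at 5 h and 15 h (-0.54 and -0.64) and Aars at 15 h (-0.48). Tars was called lower at 5 h, 15 h and 24 h (-0.47, -0.71 and -0.45). The calls of Farsb, Lars2 and Wars2 at 5 h, Fars2, Kars and Vars at 15 h, and Farsa and Tars2 at 24 h were lost. The chip as a block moved no count by over 1.5 times. The causes of these shifts were not tested. For the settings that change the controls, the share of all probes called is not given here. Leaving out single arrays gave 1 to 2 higher and 6 to 9 lower at 5 h, 0 to 2 and 8 to 12 at 15 h, 0 to 2 and 6 to 9 at 24 h, 1 to 4 and 4 to 5 at 15 h against 5 h, and 0 higher and 0 to 1 lower at 24 h against 15 h. The count of higher genes was 2 at 5 h without control 3, 0 at 15 h without the second or the third 15 h array and 2 without control 1 or 5, and 0 at 24 h without the second 24 h array and 2 without control 1 or 3. At 15 h against 5 h it was 1 without the first or the second array of either time and 2 without the second 24 h array. Over all probes, 91 were called at 24 h against 15 h, and 7 without the second 15 h array to 638 without the third 24 h array. Counting every member probe gave 1 higher and 9 lower at 5 h, 1 and 11 at 15 h, and 1 and 8 at 24 h. At 15 h against 5 h it gave 4 higher and 6 lower. The 3 arrays per kainate time and probes near background, such as Iars and Yars, limit what can be called.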
